A study of Mus musculus with 18 samples.

Results

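The glutathione and antioxidant enzyme families of the mouse ovary are described here across 6 groups of libraries. They were chosen by gene symbol, as every glutathione S-transferase (Gst and Mgst genes), glutathione peroxidase (Gpx), peroxiredoxin (Prdx), thioredoxin (Txn), thioredoxin reductase (Txnrd) and superoxide dismutase (Sod) in the tables, together with Gclc, Gclm, Gss, Gsr and Cat. Of 53 symbols that matched, 46 had a value of at least 1 FPKM (fragments scaled to gene length and to library size, a level that can be compared between genes) in at least 3 of the 18 libraries and are the members. They are 46 of 14607 genes that passed the same filter and of 30172 genes in the tables. The 7 matched genes under the filter were Gpx2, Gpx5, Gsta1, Gstm3, Gstp3, Gstt4 and Mgst2.

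The ovaries came from wild type C57BL/6J daughters (F1) of dams kept on normal chow (F1-Control) or on chow with 3% methionine (F1-HHcy), which raises homocysteine in the dam and is called hyperhomocysteinemia. The sample labels start that diet 4 weeks before mating and continue it through gestation and lactation, while the study's methods give a different length of feeding before mating than the labels do. The sires ate a normal diet, and the daughters themselves were not treated. RNA of whole ovaries at postnatal day 3, 7 or 21 (Pd3, Pd7, Pd21) was sequenced in 3 libraries per diet and day, and the labels put Pd3 with Pd7 in batch 1 and Pd21 alone in batch 2, so that Pd21 and its batch cannot be told apart. Neither the litter nor the number of ovaries behind a library is given, so p-values measure the spread between these libraries.

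Glutathione is a tripeptide of glutamate, cysteine and glycine, and its cysteine can be drawn from homocysteine by transsulfuration. Glutamate-cysteine ligase, made of the catalytic subunit Gclc and the modifier subunit Gclm, performs the rate-limiting step, glutathione synthetase (Gss) adds glycine, and glutathione reductase (Gsr) returns the oxidised form to the reduced form with NADPH. Transferases couple glutathione to electrophiles, peroxidases and peroxiredoxins use glutathione or thioredoxin to remove peroxides, and superoxide dismutases feed hydrogen peroxide to them. Many of these genes are known targets of the transcription factor NRF2, and in the ovary glutathione of the oocyte and granulosa cells is known to protect growing follicles.

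Libraries held 33630641 to 39399281 fragments. F1-Control Pd7 replicate 2 had the highest summed level of the members, 6006 FPKM, against 3508 to 5366 in the other 17 libraries. As a share of the FPKM of all genes in that library the sum was 1.13%, below the 1.14 to 1.20% of F1-Control at Pd3. F1-HHcy Pd3 replicate 3 lay nearest of its group to F1-Control for Gclm, Gstm6, Gstk1, Gpx3, Gpx7 and Sod3. Oocyte markers were present in every library, with sums of 800 to 2254 FPKM over 5 genes. Markers of other cell types differed between the diets as well. Erythroid markers (4 globin genes and Alas2) were lower in F1-HHcy at Pd3 and at Pd7, with 5 of 5 called on each day. The 5 theca and steroidogenic markers were all higher in F1-HHcy at Pd7, and 4 of 4 markers of multiciliated cells, an oviduct cell type, were lower in F1-HHcy at Pd21. In RNA of a whole ovary, fewer cells of a type and less RNA per cell cannot be told apart.

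The members spanned a wide range of levels. Of the 46, 10 had a median over the 18 libraries of at least 100 FPKM, 25 lay between 10 and 100, 9 between 1 and 10, and 2 below 1. Sod1, the cytosolic copper-zinc superoxide dismutase, was the highest at 478 to 1357 FPKM and made up 18.6% of the summed level of all members. Gstm2, a mu class transferase, followed at 302 to 807 FPKM and Prdx1, a cytosolic peroxiredoxin, at 333 to 692 FPKM, and the ranges of these 3 genes overlapped. Gstm1 (213 to 440 FPKM), Prdx2 (187 to 329 FPKM) and the phospholipid hydroperoxidase Gpx4 (121 to 321 FPKM) came next by median, again with overlapping ranges.

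A diet difference was called at an adjusted p below 0.05 in limma, with the adjustment made over every gene tested on that day. At Pd3, 6 of 45 tested members were called and all 6 were lower in F1-HHcy, where 3.07% of all genes were called in either direction and 1.43% as lower. At Pd7, 8 of 45 were called, 3 higher and 5 lower, where 11.9% of all genes were called. Of the 3 higher, Gpx6 passed the filter on low values only through the F1-HHcy libraries, where it was high, and so had to differ; without it 7 of 44 were called, 2 higher and 5 lower. At Pd21, 1 of 45 was called, as lower, where 2.23% of all genes were called, all of them lower. Over the 3 days 12 members were called with Gpx6 counted in, among them Gclm and Gsr on both Pd3 and Pd7 and Gsta3 on both Pd7 and Pd21. The groups did not overlap for 20 members at Pd3 (4 higher and 16 lower, where 27.9% of all genes did not overlap), for 23 at Pd7 (5 higher, Gpx6 among them, and 18 lower, 39%) and for 5 at Pd21 (all lower, where 8.61% of all genes lay so). The median difference of the members, F1-HHcy minus F1-Control on the log2(FPKM + 1) scale, was -0.11 at Pd3, -0.27 at Pd7 and -0.087 at Pd21, beside -0.031, -0.0015 and -0.011 over all genes tested. The plot of differences by day shows the 6 called falls at Pd3, the mixed directions at Pd7 and the narrow spread at Pd21.

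**Figure D1:**
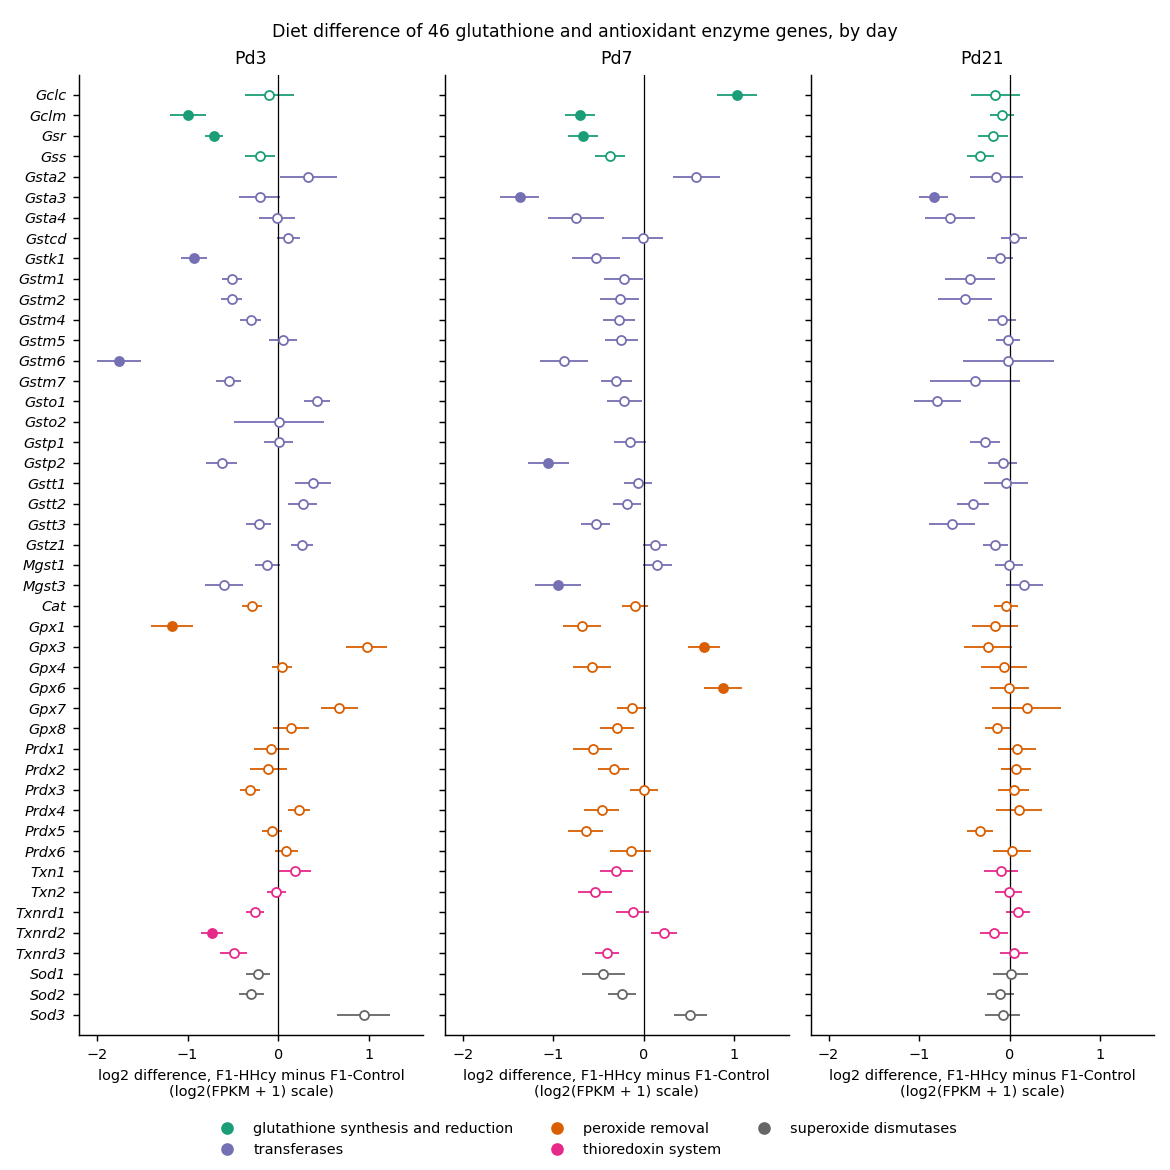
Difference between F1-HHcy and F1-Control for each member on each day, on the log2(FPKM + 1) scale (horizontal axis), with bars for 1 standard error of limma; filled points are members called at an adjusted p under 0.05, colours mark the role. All 6 filled points at Pd3 lie left of 0, 3 of 8 lie right of 0 at Pd7 (Gpx6 among them, which passed the filter through F1-HHcy alone), and Gsta3 is the filled point at Pd21.

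These counts depended on single libraries. At Pd3 the count was 18, with 5 higher and 13 lower, without F1-HHcy replicate 3 (21.6% of all genes were then called). It was 1 without replicate 1 of F1-HHcy (0.643% of all genes) or replicate 3 of F1-Control (0.407%). The count was 0 without replicate 2 of F1-HHcy (0.646%), replicate 1 of F1-Control (0%) or replicate 2 of F1-Control (0.00764%). At Pd7 it was 12 without replicate 3 of F1-Control (14.1% of all genes) and 3 without replicate 3 of F1-HHcy (5.57%). It was 2 without any of the other 4 libraries (3.78% to 7.33%). At Pd21 no member was called once any 1 of the 6 libraries was left out, where 0.0077% to 1.4% of all genes were called. Without the filter on low values limma called 0 members on each of the 3 days, where 0%, 0.329% and 0.133% of all genes were called. An unadjusted p under 0.05 was then found for 22, 17 and 4 members. Over all genes 4209 of 27825, 5869 of 27626 and 1969 of 27810 had such a p. With the study's own criterion, an unadjusted p under 0.05 and a log2 difference beyond 0.58, 11 members passed at Pd3 (3 higher, 8 lower, where 9.74% of all genes passed), 12 at Pd7 (3 higher with Gpx6 among them, 9 lower, 16.4%) and 4 at Pd21 (all lower, 5.14%).

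Of the genes that make and recycle glutathione, Gclm and Gsr were lower in F1-HHcy at Pd3 and again at Pd7, while Gclc was higher at Pd7. Gclm measured 43.8, 49.0 and 36.6 FPKM in F1-Control at Pd3 and 15.8, 21.6 and 27.0 in F1-HHcy. Every F1-HHcy library lay below every F1-Control library, and Gclm fell by 1.00 on the log2 scale (SE 0.20, adjusted p = 0.0453). At Pd7 Gclm measured 22.9, 21.0 and 17.1 FPKM in F1-Control and 11.8, 10.4 and 13.9 in F1-HHcy, again without overlap (-0.71, SE 0.16, adjusted p = 0.0232). At Pd21 the groups overlapped, at 24.7, 21.6 and 21.8 against 20.9, 20.2 and 22.9 FPKM (-0.087, SE 0.13, adjusted p = 1.00).

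The catalytic subunit Gclc had another pattern than its partner. At Pd3 it measured 14.4, 16.0 and 12.2 FPKM in F1-Control and 21.3, 9.62 and 10.8 in F1-HHcy, where replicate 1 was the highest and the other 2 the lowest of the 6 libraries (-0.099, SE 0.27, adjusted p = 0.860). With 1 library left out this difference ran from -0.43 to 0.10, so its sign was not fixed. At Pd7 it measured 11.1, 8.29 and 16.8 FPKM in F1-Control and 23.3, 27.3 and 23.8 in F1-HHcy. The Pd7 groups did not overlap, and Gclc rose by 1.03 in F1-HHcy (SE 0.22, adjusted p = 0.0176). The ratio of Gclc to Gclm in the same library was 0.329 ± 0.0033 (SD, n = 3) in F1-Control and 0.732 ± 0.54 in F1-HHcy at Pd3, and 0.621 ± 0.32 and 2.10 ± 0.47 at Pd7. The mean of F1-HHcy at Pd3 was carried by replicate 1, with a ratio of 1.35 against 0.447 and 0.401 in the others. On each of these days the ratios did not overlap between the diets (two-sided exact permutation p = 0.1, the smallest that 3 against 3 libraries allow), and at Pd21 they did, at 0.970 ± 0.28 and 0.935 ± 0.34 (exact permutation p = 0.9).

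Beside the Gclc values, the summed theca and steroidogenic markers were 1130 to 1181 FPKM in F1-HHcy at Pd7 against 216 to 446 in F1-Control. At Pd3 they were 675 FPKM in F1-HHcy replicate 1, the library with the high Gclc, and 70.8 to 348 in the other 5 libraries. The part of these cells in the Gclc values was not tested.

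Gsr, which recycles glutathione, was lower on the same days as Gclm. At Pd3 it measured 35.2, 35.7 and 32.6 FPKM in F1-Control and 18.8, 21.8 and 21.6 in F1-HHcy, groups that were far apart, and fell by 0.71 (SE 0.10, adjusted p = 0.0225). At Pd7 it measured 21.6, 22.6 and 18.4 FPKM against 12.2, 10.6 and 15.6, without overlap (-0.67, SE 0.17, adjusted p = 0.0310). At Pd21 Gsr overlapped between the diets, at 17.7 to 23.0 against 15.7 to 21.0 FPKM. Gss measured 10.3 to 12.7 FPKM in F1-Control and 8.50 to 12.8 in F1-HHcy at Pd3, and it passed the test on none of the days (adjusted p = 0.513, 0.154 and 0.859 in order of age).

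**Figure D2:**
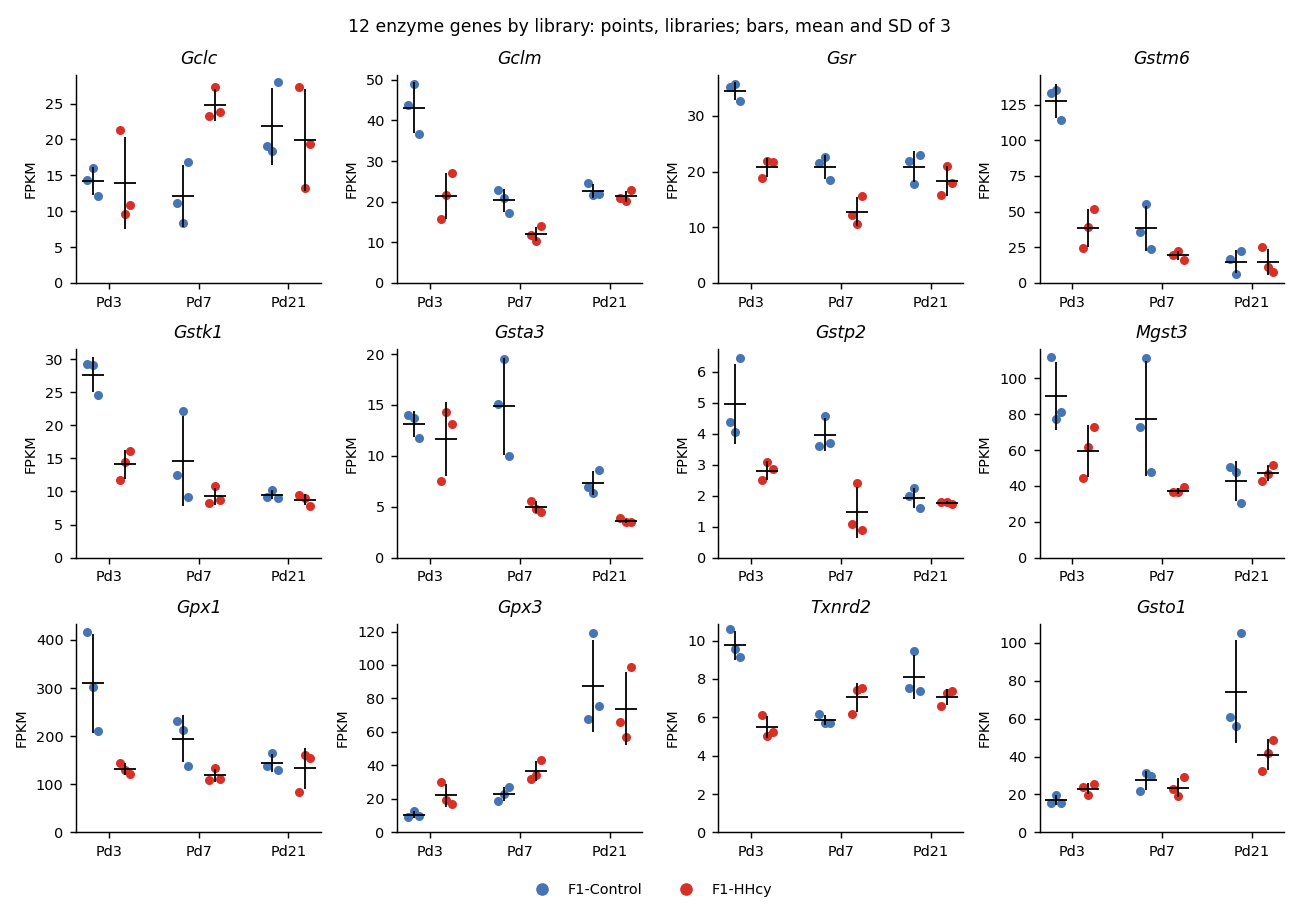
FPKM (vertical axes, from 0) of 12 members in each library by day; points are libraries, blue F1-Control and red F1-HHcy, and black bars are the mean and SD of 3 libraries. The groups separate for Gclm and Gsr at Pd3 and Pd7, for Gclc at Pd7 and for Gsta3 at Pd7 and Pd21.

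Sequences upstream of the start were read for 40 of the 46 members from RefSeq (GRCm38.p6). The core of the antioxidant response element, the DNA sequence that NRF2 with a small MAF protein binds, was searched as TGACNNNGC on both strands in the 250 bases before each start. It was found for 8 of the 40 members (Gclm, Gsta3, Gstm5, Gstm7, Mgst1, Prdx1, Sod1 and Txnrd1; 20%) and for 3112 of 27025 genes of the whole table (11.5%). Of the 12 members called in a diet comparison, Gpx6 counted in, 10 have a sequence in that table, and 2 of these, Gclm and Gsta3, hold the core. Their full windows are shown since both genes were called between the diets, and the capitals mark the core, which reads as its reverse complement in Gclm; they lie at chr3:122245307-122245556 (plus strand) and chr1:21240335-21240584 (plus strand). A match of letters says nothing on whether the factor binds there.
Gclm: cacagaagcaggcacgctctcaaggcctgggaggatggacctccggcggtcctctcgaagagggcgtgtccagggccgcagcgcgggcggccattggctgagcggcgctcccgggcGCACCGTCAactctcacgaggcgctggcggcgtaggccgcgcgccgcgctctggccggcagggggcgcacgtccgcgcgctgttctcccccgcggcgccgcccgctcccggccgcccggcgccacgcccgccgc
Gsta3: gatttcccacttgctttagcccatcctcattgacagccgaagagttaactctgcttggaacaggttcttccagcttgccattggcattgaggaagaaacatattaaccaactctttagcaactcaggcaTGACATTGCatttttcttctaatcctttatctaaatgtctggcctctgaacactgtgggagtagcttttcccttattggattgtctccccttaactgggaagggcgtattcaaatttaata

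Of the transferases, which conjugate glutathione, 2 of 21 tested were called at Pd3, 3 of 20 at Pd7 and 1 of 20 at Pd21, all lower in F1-HHcy. Over all genes 3.07%, 11.9% and 2.23% were called on these days, and at Pd21 every called gene was lower. Gstm6, a mu class transferase, had the largest difference of any member at Pd3. It measured 133, 135 and 114 FPKM in F1-Control and 24.6, 39.4 and 51.6 in F1-HHcy. The groups were far apart, and Gstm6 fell by 1.76 (SE 0.24, adjusted p = 0.0211). At Pd7 it was 35.9, 55.4 and 23.7 FPKM against 19.5, 22.5 and 16.1, still without overlap but not called (-0.88, SE 0.27, adjusted p = 0.0583), and at Pd21 the groups overlapped at 5.99 to 25.3 FPKM.

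Gstm6 lies in a cluster of 7 mu class genes on chromosome 3 (GRCm38, from 107895821 to 108044894), and 6 of them are members. At Pd3 the F1-HHcy libraries lay below every F1-Control library for 5 of the 6, where 16.1% of all genes lay so. Gstm2 measured 807, 806 and 788 FPKM against 606, 542 and 534 (-0.52, SE 0.12, adjusted p = 0.0618), and Gstm1 measured 382, 376 and 336 FPKM against 252, 248 and 268 (-0.51, SE 0.11, adjusted p = 0.0535). Gstm7 (-0.55, adjusted p = 0.0788) and Gstm4 (-0.30, adjusted p = 0.174) did not pass either. Gstm5, at the end of the cluster and on the opposite strand, overlapped between the diets at 64.9 to 95.7 against 73.2 to 86.2 FPKM. The summed level of the 6 members was 1323 to 1441 FPKM in F1-Control and 928 to 979 in F1-HHcy at Pd3, and the ranges overlapped at Pd7 (837 to 1219 against 815 to 878 FPKM) and at Pd21. Gstm1 and Gstm6 share 10.9% and 6.73% of their 50-base words with relatives, so a part of their reads could be assigned either way.

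Gstk1, the kappa class transferase of mitochondria and peroxisomes, measured 29.3, 29.2 and 24.6 FPKM in F1-Control at Pd3 and 11.7, 14.5 and 16.1 in F1-HHcy. The groups did not overlap, and Gstk1 fell by 0.93 (SE 0.14, adjusted p = 0.0245). At Pd7 they overlapped, with F1-Control replicate 2 at 22.2 FPKM and the other 5 libraries at 8.29 to 12.5.

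Gsta3, an alpha class transferase, was the member with the smallest p at Pd7 and at Pd21. At Pd3 it measured 14.0, 13.7 and 11.7 FPKM in F1-Control and 7.48, 14.3 and 13.1 in F1-HHcy, groups that overlapped. Its Pd7 values were 15.1, 19.5 and 9.94 FPKM against 5.58, 4.82 and 4.44, so that every F1-HHcy library was lower, and it fell by 1.37 (SE 0.22, adjusted p = 0.0066), a call that held without any 1 of the 6 libraries. At Pd21 it measured 6.93, 6.33 and 8.62 FPKM against 3.86, 3.49 and 3.47, again without overlap (-0.84, SE 0.16, adjusted p = 0.0397), a call lost without any 1 library, when the difference was -0.92 to -0.73. The difference of its diet effect between Pd3 and Pd7 was -1.17 (SE 0.31, adjusted p = 0.107).

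Gsta4, the alpha class transferase that detoxifies lipid aldehydes, was far higher, at 209, 312 and 217 FPKM in F1-Control and 153 ± 61 (SD, n = 3) in F1-HHcy at Pd7. The groups did not overlap, with F1-HHcy replicate 3 at 83.9 FPKM well below the rest, and the difference did not pass the test (-0.75, SE 0.31, adjusted p = 0.133). At Pd21 Gsta4 measured 91.2, 65.0 and 149 FPKM against 68.3, 58.9 and 54.9 (-0.66, SE 0.28, adjusted p = 0.668), and the groups overlapped.

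Gstp2, a pi class transferase, was lower in F1-HHcy at Pd7, at 3.61, 4.59 and 3.71 FPKM against 1.09, 2.41 and 0.897 (-1.05, SE 0.22, adjusted p = 0.0177). Its level is uncertain, since 64.3% of its 50-base words are also in Gstp1, which measured 62.5 to 86.5 FPKM in F1-Control and 57.5 to 79.5 in F1-HHcy on that day. Mgst3, a membrane-bound transferase and peroxidase, measured 73.0, 112 and 48.0 FPKM in F1-Control at Pd7 and 36.5, 36.4 and 39.3 in F1-HHcy. The F1-Control libraries were widely spread but all higher, and Mgst3 fell by 0.95 (SE 0.25, adjusted p = 0.0406). Mgst1, a membrane-bound relative at 115 to 205 FPKM over the 18 libraries, overlapped between the diets on each day.

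At Pd7 markers of several tissues moved with the diet beside these transferases. Of 5 oocyte markers 3 were called lower, with sums of 1405 to 2254 FPKM in F1-Control and 800 to 1057 in F1-HHcy. Another 1 of these 5 had a positive difference and was not called. Of 4 oviduct secretory markers 2 were called lower (sums of 32.3 to 54.4 against 15.4 to 29.3 FPKM). Another 1 of these 4 was higher in F1-HHcy without overlap, by 1.22, and was not called. Of 4 surface epithelium markers 1 was called lower (306 to 487 against 135 to 301 FPKM). Of 4 adipocyte markers 2 were called higher (4.81 to 16.0 against 16.5 to 24.9 FPKM). None of these sums overlapped between the diets, and their part in the Pd7 values of the members was not tested.

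Among the other classes, Gsto1, the omega class member known for its thioltransferase activity, was the second smallest p at Pd21. It measured 60.8, 56.3 and 105 FPKM in F1-Control and 32.6, 42.0 and 48.6 in F1-HHcy, without overlap and with F1-Control replicate 3 far above the rest (-0.80, SE 0.26, adjusted p = 0.316). At Pd3 it went the other way, at 15.7, 19.9 and 15.3 FPKM against 23.8, 19.8 and 25.7 (0.43, SE 0.14, adjusted p = 0.143). The diet effect of Gsto1 differed between Pd3 and Pd21 by -1.23 (SE 0.32, adjusted p = 0.0355, where 4.59% of 14607 genes were called). Gstt3, a theta class gene with the third smallest p at Pd21, measured 6.56, 5.66 and 7.58 FPKM against 5.84, 2.44 and 3.87, with overlap (-0.64, SE 0.25, adjusted p = 0.597). The highest members of the theta, zeta and remaining classes, Gstt1 (28.7 to 60.4 FPKM), Gstz1 (9.95 to 19.9) and Gstcd (4.62 to 8.56), were called on none of the 3 days.

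At Pd21, markers of the oviduct and of other tissues moved with the diet beside these transferases. The 4 multiciliated markers summed to 202, 51.0 and 103 FPKM in F1-Control and to 6.98, 3.91 and 4.10 in F1-HHcy, and 2 of 4 markers of the oviduct secretory epithelium were called lower, with sums of 267, 66.7 and 427 against 26.2, 12.9 and 21.8 FPKM. F1-Control replicate 3 had the highest secretory sum and the highest Gsta3, Gsta4 and Gsto1. The 4 surface epithelium markers were all lower in F1-HHcy without overlap, though none was called (sums of 234 to 297 against 70.7 to 156 FPKM), and 3 of 4 adipocyte markers had an unadjusted p under 0.05 (51.8 to 308 against 7.54 to 79.4 FPKM, the highest again in F1-Control replicate 3). The part of these tissues in the differences was not tested.

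Of the 13 members that remove peroxides, 12 were tested at Pd3, where 1 was called. At Pd7 all 13 were tested and, with Gpx6 left aside, 1 was called. Over all genes 3.07% and 11.9% were called on these days. Gpx1, the cytosolic and mitochondrial glutathione peroxidase, measured 416, 303 and 211 FPKM in F1-Control at Pd3 and 145, 131 and 120.4 in F1-HHcy. The 3 F1-Control libraries were widely spread but all higher, and Gpx1 fell by 1.18 (SE 0.23, adjusted p = 0.0449). At Pd7 it measured 231, 212 and 139 FPKM against 109.8, 133 and 112, without overlap (-0.68, SE 0.21, adjusted p = 0.0598), and at Pd21 the groups overlapped at 130 to 165 against 83.9 to 160.2 FPKM.

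The erythroid marker sum was 11109, 6288 and 3887 FPKM in F1-Control at Pd3, in the same order of libraries as Gpx1, and 778 to 1107 in F1-HHcy. Prdx2, known as the abundant peroxiredoxin of red cells, was ordered alike in F1-Control at 313, 248 and 195 FPKM but overlapped with F1-HHcy at 260.1, 248 and 187. At Pd7 the erythroid sum was 5727, 1555 and 924 FPKM in F1-Control, again in the order of Gpx1, and 287 to 502 in F1-HHcy. The part of blood in the Gpx1 values was not tested.

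**Figure D3:**
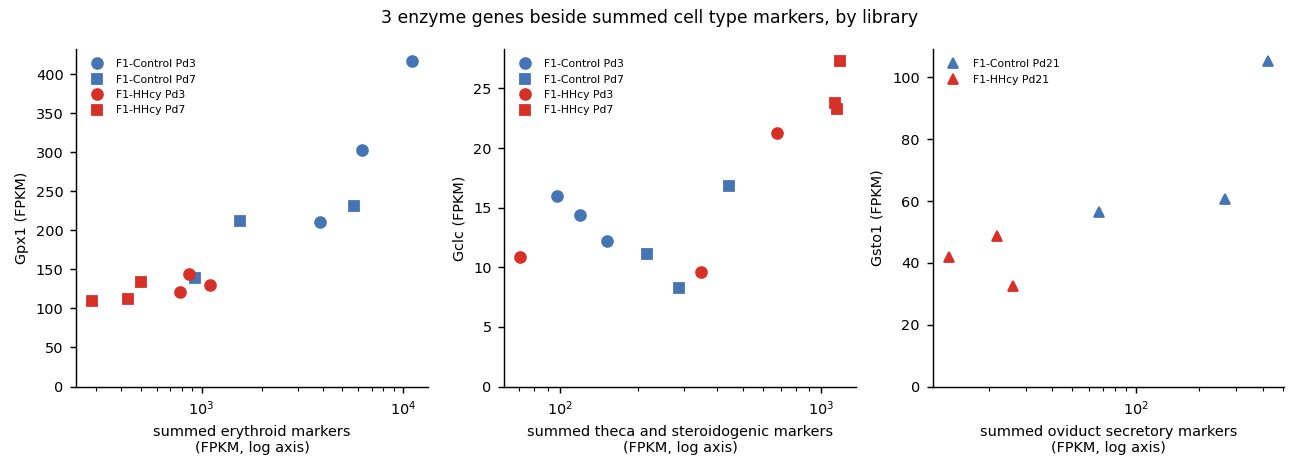
Level of Gpx1, Gclc and Gsto1 (FPKM, vertical axes from 0) beside the summed level of erythroid, theca and steroidogenic, and oviduct secretory markers (horizontal log axes) in each library; blue F1-Control, red F1-HHcy, circles Pd3, squares Pd7, triangles Pd21. Gpx1 is highest, at 416 FPKM, in the library with the highest erythroid sum, and among the libraries of Pd7 the 3 of F1-HHcy have the highest steroidogenic sums (1130 to 1181) and the highest Gclc (23.3 to 27.3).

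Gpx3, the secreted plasma form of glutathione peroxidase, went up rather than down. At Pd3 it measured 8.88, 13.0 and 9.79 FPKM in F1-Control and 30.0, 19.3 and 17.1 in F1-HHcy, without overlap but not called (0.98, SE 0.22, adjusted p = 0.0617). At Pd7 it measured 18.5, 22.8 and 26.9 FPKM against 31.8, 34.5 and 43.3, without overlap, and rose by 0.66 in F1-HHcy (SE 0.18, adjusted p = 0.0392). At Pd21 the groups overlapped at far higher levels, 67.98 to 119 against 57.0 to 98.5 FPKM.

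Gpx6, a close relative of Gpx3 known from the olfactory epithelium, stood near the lower limit of the filter. At Pd7 it measured 0.362, 0.512 and 0.583 FPKM in F1-Control and 1.73, 1.04 and 2.62 in F1-HHcy, without overlap, so it entered the Pd7 test through the F1-HHcy libraries alone and its difference is given with no test (0.87). At Pd21 it measured 2.78 to 5.38 FPKM in F1-Control and 3.37 to 4.12 in F1-HHcy.

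Gpx4, Prdx1, Prdx2 and catalase passed the test on none of the days. Gpx4 acts on lipid peroxides and measured 170 to 192 FPKM in F1-Control and 170 to 200 in F1-HHcy at Pd3. At Pd7 it was 215, 321 and 194 FPKM against 168, 169 and 142, without overlap (-0.57, SE 0.21, adjusted p = 0.0966). Prdx1 was 488, 692 and 442 FPKM against 389, 353 and 333 at Pd7 (-0.57, SE 0.21, adjusted p = 0.103), with F1-Control replicate 2 the highest of all 18 libraries. The peroxiredoxins lay below F1-Control without overlap at Pd7 for 4 of 6 genes, where 19.5% of all genes lay so, and 2 of the 6 overlapped. Catalase (Cat), which breaks down hydrogen peroxide in peroxisomes, measured 34.2, 36.5 and 33.5 FPKM against 29.9, 30.4 and 24.9 at Pd3, without overlap (-0.29, SE 0.11, adjusted p = 0.190), and overlapped at Pd7 and Pd21.

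The 3 thioredoxin reductases, which use NADPH to reduce thioredoxin, were all lower in F1-HHcy at Pd3 without overlap, where 16.1% of all genes lay so, and 1 of them was called. Txnrd2, the mitochondrial reductase, measured 10.6, 9.56 and 9.13 FPKM in F1-Control and 6.13, 5.05 and 5.25 in F1-HHcy. The groups did not overlap, and Txnrd2 fell by 0.73 (SE 0.12, adjusted p = 0.0303). The cytosolic Txnrd1 measured 28.0, 31.5 and 28.5 FPKM against 25.3, 24.1 and 23.7, without overlap (-0.26, SE 0.097, adjusted p = 0.178), and Txnrd3 differed by -0.49 (SE 0.15, adjusted p = 0.121).

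At Pd7 Txnrd2 measured 6.16, 5.70 and 5.68 FPKM in F1-Control and 6.19, 7.41 and 7.51 in F1-HHcy, where the lowest F1-HHcy library was barely above the highest F1-Control library. The diet effect of Txnrd2 differed between Pd3 and Pd7 by 0.96 (SE 0.17, adjusted p = 0.0255), and it was the 1 member of 46 that limma called for this difference, where 0.411% of all genes were called. Txn1, the cytosolic thioredoxin, measured 100.5 to 118 FPKM against 92.7 to 147 at Pd3 and passed the test on none of the days.

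Of the superoxide dismutases none was called on any day by limma or by limma-voom on the recovered fragments, where the number of the 3 with an unadjusted p under 0.05 was 1 at Pd3, 1 at Pd7 and 0 at Pd21. Sod1 measured 1086, 1112 and 958 FPKM in F1-Control and 834, 898 and 968 in F1-HHcy at Pd3, with overlap. At Pd7 it measured 863, 1357 and 879.9 FPKM against 725, 822 and 681, without overlap (-0.45, SE 0.24, adjusted p = 0.229). Sod2, the mitochondrial enzyme, overlapped on each day at 12.8 to 22.1 FPKM. Sod3, the extracellular enzyme, measured 1.58, 2.01 and 2.51 FPKM against 6.79, 5.95 and 2.60 at Pd3, where F1-HHcy replicate 3 was close to F1-Control (0.95, SE 0.29, adjusted p = 0.120).

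The change from Pd3 to Pd7 within a diet lies in 1 batch. In F1-Control, 12 of 45 members were called, 5 higher and 7 lower at Pd7, where 14.5% of all genes were called. The 3 largest falls were those of Gstm6 (from 128 to 38.3 FPKM, -1.79, SE 0.26, adjusted p = 0.0035), Gclm (43.1 to 20.3 FPKM, -1.05, SE 0.15, adjusted p = 0.0039) and Gstk1 (27.7 to 14.6 FPKM, -0.96, SE 0.26, adjusted p = 0.0408). The 3 largest rises were those of Sod3 (2.03 to 5.58 FPKM, 1.12, SE 0.17, adjusted p = 0.0045), Gpx3 (10.6 to 22.8 FPKM, 1.04, SE 0.18, adjusted p = 0.0075) and Gpx7, a peroxidase of the endoplasmic reticulum (30.6 to 62.8 FPKM, 1.00, SE 0.15, adjusted p = 0.0045). Gsr, Txnrd2 and Txnrd3 also fell, and Gstt1 and Gsto1 also rose. The remaining call, Gsto2, passed the filter through the Pd3 libraries alone (1.03 to 1.42 FPKM, against 0.0629 to 0.532 at Pd7), and without it 11 of 44 were called, 5 higher and 6 lower. Gstm6, Gclm, Gpx3, Gpx7 and Sod3 were called without any 1 of the 6 libraries. The count was 5 without F1-Control Pd3 replicate 1, 6 without Pd3 replicate 2 and 7 without Pd3 replicate 3 or Pd7 replicate 3, in fits that called 4.52%, 4.91%, 7.24% and 5.66% of all genes.

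In F1-HHcy limma called 0 of 45 members from Pd3 to Pd7, and 0 of 13257 genes, while 17 members had an unadjusted p under 0.05 and 23.5% of all genes did. Without F1-HHcy Pd3 replicate 1 it called 9 members, 2 higher and 7 lower, where 8.96% of all genes were called. Gsta3 went from 11.6 ± 3.6 to 4.94 ± 0.58 FPKM (SD, n = 3; -1.05, SE 0.23, adjusted p = 0.0961), and Gclc from 13.9 ± 6.4 to 24.8 ± 2.2 FPKM (0.87, SE 0.27, adjusted p = 0.136).

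The Pd3 diet comparison and the change from Pd3 to Pd7 in F1-Control use the same 3 F1-Control Pd3 libraries, so their values are set side by side without a measure of likeness. Gstm6 differed by -1.76 and -1.79 in the 2 comparisons, Gclm by -0.997 and -1.05, Gsr by -0.71 and -0.70, Gstk1 by -0.93 and -0.96 and Txnrd2 by -0.73 and -0.65, and these 5 were called in each. Gpx3 differed by 0.98 and 1.04, Gpx7 by 0.68 and 1.00 and Sod3 by 0.95 and 1.12, and were called in the second alone. In levels, F1-HHcy at Pd3 and F1-Control at Pd7 stood at 38.5 and 38.3 FPKM for Gstm6, 21.4 and 20.3 for Gclm, 20.8 and 20.9 for Gsr, 14.1 and 14.6 for Gstk1 and 22.1 and 22.8 for Gpx3. Gpx1 stood at 132 FPKM in F1-HHcy at Pd3 and 194 in F1-Control at Pd7.

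**Figure D4:**
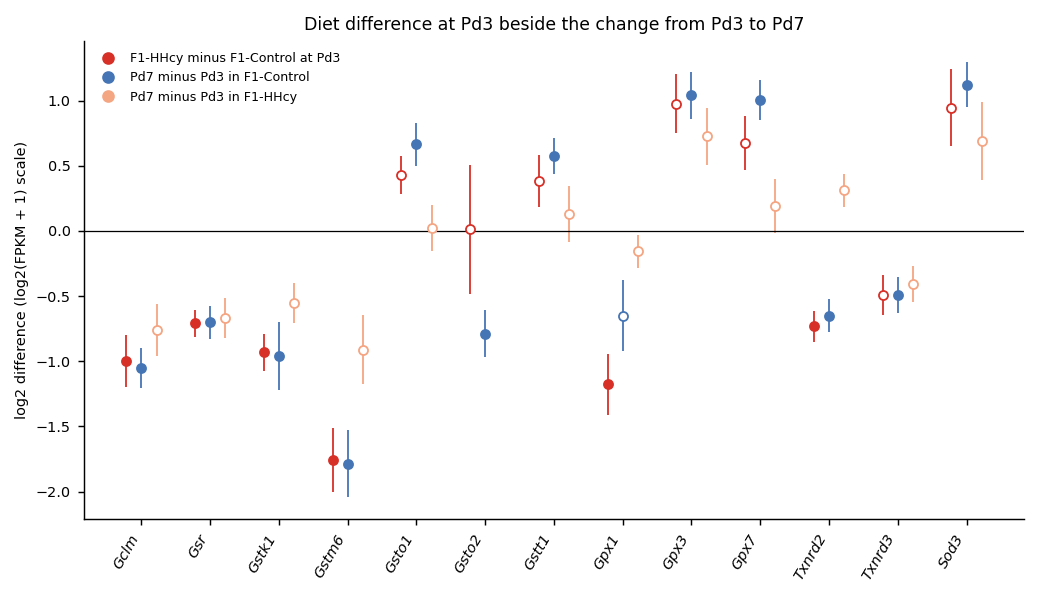
Log2 difference on the log2(FPKM + 1) scale (vertical axis) for the 13 members called in at least 1 of 3 comparisons, F1-HHcy minus F1-Control at Pd3 (red), Pd7 minus Pd3 in F1-Control (blue) and Pd7 minus Pd3 in F1-HHcy (light); bars are 1 standard error and filled points are called at an adjusted p under 0.05. Red and blue share the F1-Control Pd3 libraries, and both are filled for Gclm, Gsr, Gstk1, Gstm6 and Txnrd2. Gsto2, filled in blue, passed the filter through the Pd3 libraries alone.

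Markers of other cell types differed between the same groups. Of 5 oocyte markers, 2 were called higher in F1-HHcy at Pd3 and 3 called higher at Pd7 in F1-Control, while in each comparison 2 of the 5 had a negative difference and 1 of these did not overlap. Of 5 granulosa markers 2 were called higher in each comparison, and 2 and 3 of them had a negative difference. All 4 stroma markers had a positive difference in each, with 2 and 3 called, and all 5 erythroid markers a negative one, with 5 and 1 called. The stroma sums were 310 to 424 FPKM in F1-Control at Pd3, 569 to 776 in F1-HHcy at Pd3 and 648 to 879.6 in F1-Control at Pd7. The oocyte sums of these groups were 982 to 1150.5, 1195 to 1573 and 1405 to 2254 FPKM, and the granulosa sums 204 to 217, 265 to 461 and 230.5 to 462. Their part in the enzyme values was not tested.

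The difference of the diet effect between Pd3 and Pd21 was called for 2 members. Gclm differed by 0.91 (SE 0.24, adjusted p = 0.0387), having been lower in F1-HHcy at Pd3 and overlapping at Pd21, and Gsto1 is described above. Between Pd7 and Pd21 limma called 0 of 46 members and limma-voom called 0, with 11 at an unadjusted p under 0.05 in limma (19.4% of all genes), where 3.89% of all genes were called. With 1 of the 18 libraries left out at a time, the Gclm difference was 0.72 to 1.09 and stayed called in 7 of 18 cases, that of Gsto1 was -1.39 to -0.95 and stayed called in 10, and that of Txnrd2 between Pd3 and Pd7 was 0.91 to 1.04 and stayed called in 12. The lowest Gclm value came without F1-HHcy Pd3 replicate 1, and the Gsto1 value nearest to 0 without F1-Control Pd21 replicate 3.

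Partner genes of the same chemistry were tested in 4 lists by role. For scale, the share of all genes with a diet call was 3.07% (Pd3), 11.9% (Pd7) and 2.23% (Pd21). Of the genes of glutathione turnover and transport 1 of 10 tested was called at Pd3, Ggct, which releases 5-oxoproline from gamma-glutamyl peptides, at 12.6 ± 0.53 FPKM in F1-Control and 28.0 ± 7.4 in F1-HHcy (SD, n = 3; 1.06, SE 0.17, adjusted p = 0.0303). Of 7 genes listed for NADPH supply 2 were called at Pd3, both lower, and both act in the non-oxidative pentose phosphate branch, which makes no NADPH itself: Tkt (136 ± 2.5 to 94.0 ± 2.2 FPKM, -0.53, SE 0.089, adjusted p = 0.0307) and Taldo1 (87.5 ± 5.3 to 62.1 ± 3.1 FPKM, -0.49, SE 0.097, adjusted p = 0.0453). G6pdx, the enzyme of that pathway that forms NADPH first, measured 50.1 ± 8.7 FPKM in F1-Control and 71.8 ± 13 in F1-HHcy and did not pass (0.51, SE 0.18, adjusted p = 0.151). It was 1 of 2 genes of this list with a positive difference at Pd3. The other 5 of the 7 were lower in F1-HHcy without overlap, where 16.1% of all genes lay so. Of 9 thiol partners such as glutaredoxins and sestrins limma called 0 on each of the 3 days, with 4, 2 and 0 at an unadjusted p under 0.05. Over all genes 2974 of 13277, 4189 of 13299 and 914 of 13350 had such a p. Of the regulators and other NRF2 targets, 0 of 8 were called at Pd3, 1 of 7 at Pd7 and 0 of 8 at Pd21. That gene was Hmox1, heme oxygenase, which acts on heme, at 56.1 ± 9.7 FPKM in F1-Control and 27.1 ± 4.8 in F1-HHcy (-1.02, SE 0.18, adjusted p = 0.0085). The erythroid sums of these libraries are given above, and the part of blood in the Hmox1 values was not tested. At Pd21 limma called no gene of the 4 lists, and 1 of the 7 NADPH genes had an unadjusted p under 0.05.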

How the data were processed

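RNA of whole ovaries was sequenced in 18 libraries (6 groups of 3) from poly-A selected, stranded libraries. The submitters' processing notes name Trimmomatic 0.39, STAR 2.7.9a, featureCounts 2.0.1 and the mouse build GRCm38 (mm10). The deposited tables hold 1 value per gene that the authors normalised to FPKM. Their unit is inferred from the values, and whether fragments were pairs or single reads is not given in the sources used here: dividing by gene length and library size gave whole fragments for 27272 of 27294 genes (tolerance 0.02 fragment). Whether counting used strand is not given in the sources used here, so overlapping and near-identical genes are uncertain.

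Differences were tested with limma 3.58.1 (R 4.3.3, trend) on log2(FPKM + 1), a scale that understates changes of low genes. A gene was tested when 3 or more of the 6 libraries compared reached 1 FPKM (3 of 18 in the model of all groups, used for differences between days), and p-values were adjusted by Benjamini-Hochberg over all of them. "Rose", "fell" and "called" mean an adjusted p under 0.05. The labels give replicate numbers but no pairing, and the main fit used none. Deviations of same-numbered libraries of F1-Control at Pd3 and Pd7 correlated at 0.134, 0.262 and 0.292, and those of differently numbered libraries at -0.262 to 0.0585. Alternatives were another pseudocount (0.1), no filter, median-ratio scaling, a replicate block, all libraries in 1 model, each library left out, totals without mitochondrial and hemoglobin genes and, chosen after seeing the data, limma-voom on recovered fragments.

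The members, gene lists and tests were chosen with earlier results of these data known. The text names every member called between diets, the 3 smallest p per day, the highest member of each family, the core enzymes, the 3 largest rises and falls from Pd3 to Pd7 and called partner genes. Gstm1, Gstm4, Gstm5, Gstm7, Prdx2, Txnrd3, Gsto2, G6pdx and the markers named singly were added after their values were seen.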

Additional observations from a re-analysis of the deposited data

Results flagged for a closer look

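The diet effect of 3 members differed between days in the model of all 18 libraries. For Txnrd2 the effect at Pd7 was higher than that at Pd3 by 0.96 on the log2(FPKM + 1) scale (limma, SE 0.17, adjusted p = 0.0255). F1-HHcy was lower in 3 of 3 libraries at Pd3 and higher in 3 of 3 at Pd7. The Pd7 difference was not called, and its groups nearly touched, at 6.19 FPKM in F1-HHcy replicate 1 and 6.16 in F1-Control replicate 1. For Gclm the effect at Pd21 was higher than that at Pd3 by 0.91 (SE 0.24, adjusted p = 0.0387). For Gsto1 the effect at Pd21 was lower than that at Pd3, with a difference of -1.23 (SE 0.32, adjusted p = 0.0355). Pd21 was a batch of its own, so for Gclm and Gsto1 a diet effect that depends on the day and one that depends on the batch cannot be told apart.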

How the results depend on the processing

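None of the 32 single differences examined changed its direction, while that of Gclc at Pd3, not called and not among them, ran from -0.43 to 0.10 with 1 library left out. The 32 hold Gpx6 at Pd7 and Gsto2 from Pd3 to Pd7 in F1-Control, which passed the filter through 1 group alone. The pseudocount of 0.1 and totals without mitochondrial and hemoglobin genes left all 32 on the same side of the threshold. The others kept their side for 10 of 32 without the filter, 23 with the replicate block, 26 with limma-voom, 27 with median-ratio scaling and 25 of 29 in 1 model of all libraries. Of 222 cases with 1 library left out, 114 did. The cause of these changes was not tested.

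Percentages in brackets are the share of all genes called or passing in the same fit. Without the filter, 0 members were called at Pd3 (0%), Pd7 (0.329%) and Pd21 (0.133%). It gave 7 from Pd3 to Pd7 in F1-Control (3.21%) and 0 for the difference between Pd3 and Pd21 (2.48%). With the study's criterion, 11 passed at Pd3 (9.74%), 4 at Pd21 (5.14%) and 9 from Pd3 to Pd7 in F1-HHcy. In 1 model of all libraries 4 were called from Pd3 to Pd7 in F1-HHcy (5.79%). Median-ratio scaling gave 1 for Pd3 against Pd21 (4.45%). Limma-voom gave 0 at Pd21 (1.94%), 0 for Pd3 against Pd7 (0.267%) and 0 for Pd3 against Pd21 (2.6%).

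With 1 library left out, the count was 0 to 18 at Pd3, where 0% to 21.6% of all genes were called. At Pd7 it was 2 to 12 (3.78% to 14.1% of all genes) and at Pd21 0 (0.0077% to 1.4%). From Pd3 to Pd7 it was 5 to 14 in F1-Control (4.52% to 16.2%) and 0 to 9 in F1-HHcy (0% to 8.96%). For the differences of the diet effect it was 0 to 2 for Pd3 against Pd7 (0.0686% to 1.82%). It was 0 to 4 for Pd3 against Pd21 (1.47% to 8.65%) and 0 to 2 for Pd7 against Pd21 (1.3% to 8.03%).

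With the replicate number as a block, 0 members were called at Pd3, 12 at Pd7, 0 at Pd21, 14 from Pd3 to Pd7 in F1-Control (12 of them also without the block) and 0 in F1-HHcy, and 0, 1 and 0 for the 3 differences. The share of all genes called with the block was 0.00753%, 14.1%, 2.58%, 19.3% and 0.0377% in the first 5 of these. For the differences it was 0.192% (Pd3 against Pd7), 4.12% (Pd3 against Pd21) and 3.69% (Pd7 against Pd21). By the labels same-numbered libraries shared only a number. Between the diets their correlations were -0.200 to -0.137 at Pd3, -0.109 to 0.0872 at Pd7 and -0.338 to -0.117 at Pd21.

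In the shallowest library 1 FPKM on a gene of 1 kilobase stands for 33.6 fragments, so counting error bears most on members near 1 FPKM such as Gpx6, and each group rests on 3 libraries.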
